A study of Mus musculus with 8 samples.

Results

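The 10 genes described here encode parts of antibodies and of the receptors of lymphocytes. *Igkc*, *Igha*, *Ighm* and *Jchain* make up secreted antibody, *Cd79a* belongs to the B cell receptor, *Cd3e*, *Cd3g*, *Cd8a* and *Trbc2* belong to the T cell receptor and its partners, and *Nkg7* is a granule protein of natural killer (NK) and cytotoxic T cells. They were taken by name from a table of 54532 genes in 8 libraries and each had 1 row. They were selected on their FPKM in all 8 libraries, after earlier results had shown immunoglobulin transcripts in some *in vivo* samples, so their levels are given as a description and with no test.

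The study asked how the infarcted heart alters fibroblasts that carry the same reprogramming factors as fibroblasts kept in a dish. All 8 libraries came from MICFs, the fibroblast preparation digested from the infarcted area of C57BL/6 mouse hearts on Day 6 after myocardial infarction, which the study describes as holding some macrophages and endothelial cells too. All cells carried lentiviruses with doxycycline-inducible MGT (*Mef2c*, *Gata4* and *Tbx5*), *Myocd*, *Sall4* and eGFP, which the labels give as MGTMyoS overexpression. For the *in vivo* samples, infected cells were injected into the left ventricle of C57BL/6 hosts just after ligation of the left anterior descending artery, and eGFP+ cells were sorted from the digested hearts at 1 week (Day 7) or 2 weeks (Day 14). These hosts were 8-week-old male wild-type mice with their own lymphocytes, and they received tacrolimus, methylprednisolone and mycophenolate mofetil daily and doxycycline in the drinking water. For the *in vitro* samples, infected cells of the same kind were kept in culture with doxycycline for the same times. The study's account says that they too were sorted for eGFP, whereas its sequencing methods set cultured cells beside the sorted ones, so the sort of the *in vitro* samples is uncertain. The reprogramming medium in the methods also held SB431542, which blocks TGF-beta receptors, and baricitinib, which blocks JAK kinases. Each of the 4 groups held 2 libraries. No source says whether the replicates came from separate animals or wells, so the p-values below measure only the spread between these samples. Surroundings, immunosuppressants and medium differed together between the *in vivo* and *in vitro* samples and cannot be told apart.

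Antibodies consist of heavy and light chains, each with a variable part and a constant part. A developing B cell joins a V segment to other segments in its DNA, upstream of the constant gene. The mRNA of a finished antibody chain carries both the V segment and the constant part, and neighbouring B cells use different V segments. Heavy chain constant genes can also be transcribed without a joined V segment. Plasma cells are B cells that have switched to antibody secretion, and they couple IgM and IgA into larger complexes with the J chain. T cells carry a receptor whose beta chain ends in the constant region *Trbc1* or *Trbc2* and which signals through the CD3 proteins.

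The deposited values are FPKM, which are fragments scaled to gene length and to library size. In each library the product of FPKM and gene length came in equal steps, within 0.01 of a whole number of steps for 100% of the values above 0, and this gave the fragments behind each value. The libraries held 12304242 to 14546904 fragments on genes. Genes of the labelled fibroblasts were abundant everywhere, with 10 fibroblast markers summing to 10999.9 to 14005.9 FPKM *in vivo* and 2409.9 to 3629.8 FPKM *in vitro*. Macrophage markers were present as well, 14 of them summing to 2153 to 3460 FPKM *in vivo* and 5373 to 6595 FPKM *in vitro*. *Ptprc* (CD45), the surface marker of all leukocytes, lay at 3.33 to 7.26 FPKM *in vivo* and 4.45 to 6.84 FPKM *in vitro*. Defining lymphocyte markers outside the 10 genes differed in level. *Ms4a1* of B cells, *Cd3d* of T cells and *Ncr1* of NK cells were among the lowest, with 0 to 3 fragments in every library. Others were higher in some or all libraries, with 6 to 84 fragments for *Cd4* and 8 to 28 for *Trac*, both of T cells. *Cd79b* of B cells had 0 to 20.

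*Igkc* is the kappa light chain constant region, and its transcripts showed the sharpest contrast of the 10 genes. It lies at chr6:70726435-70726966 on the plus strand of GRCm38 and has 320 coding bases. The first 300 are printed from GENCODE vM21, in lower case with no part marked, because this gene was counted in every *in vivo* library and in none from culture:

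Igkc: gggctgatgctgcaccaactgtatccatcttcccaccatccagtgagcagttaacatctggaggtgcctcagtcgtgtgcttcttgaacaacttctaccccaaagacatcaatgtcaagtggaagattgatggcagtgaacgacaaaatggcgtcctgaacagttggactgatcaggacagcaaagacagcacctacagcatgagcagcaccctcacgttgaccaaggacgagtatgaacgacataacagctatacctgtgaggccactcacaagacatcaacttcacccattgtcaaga

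*In vivo*, *Igkc* stood at 2.73 and 7.07 FPKM in the week 1 replicates and at 35.5 and 20.4 FPKM in the week 2 replicates. These values rest on 17, 49, 213 and 120 fragments. *In vitro*, it had 0 fragments in all 4 libraries, where 3 fragments would be 0.366 to 0.415 FPKM. The *in vivo* and *in vitro* samples did not overlap, and the week 2 libraries lay above the week 1 libraries *in vivo*. Against the *in vitro* floor of 3 fragments per library, the mean *in vivo* level of week 1 was at least 13.0-fold higher and that of week 2 at least 67.4-fold higher. The *in vivo* mean was 4.90 ± 3.07 FPKM (SD, n = 2) at week 1 and 27.9 ± 10.6 FPKM (SD, n = 2) at week 2, a ratio of 5.70. In bulk RNA, more cells of a type and more RNA per cell cannot be told apart, and intervals and floors here cover counting error only. The lincRNA *Gm30211* overlaps *Igkc* on the same strand and had 0 fragments in all 8 libraries.

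**Figure D1:**
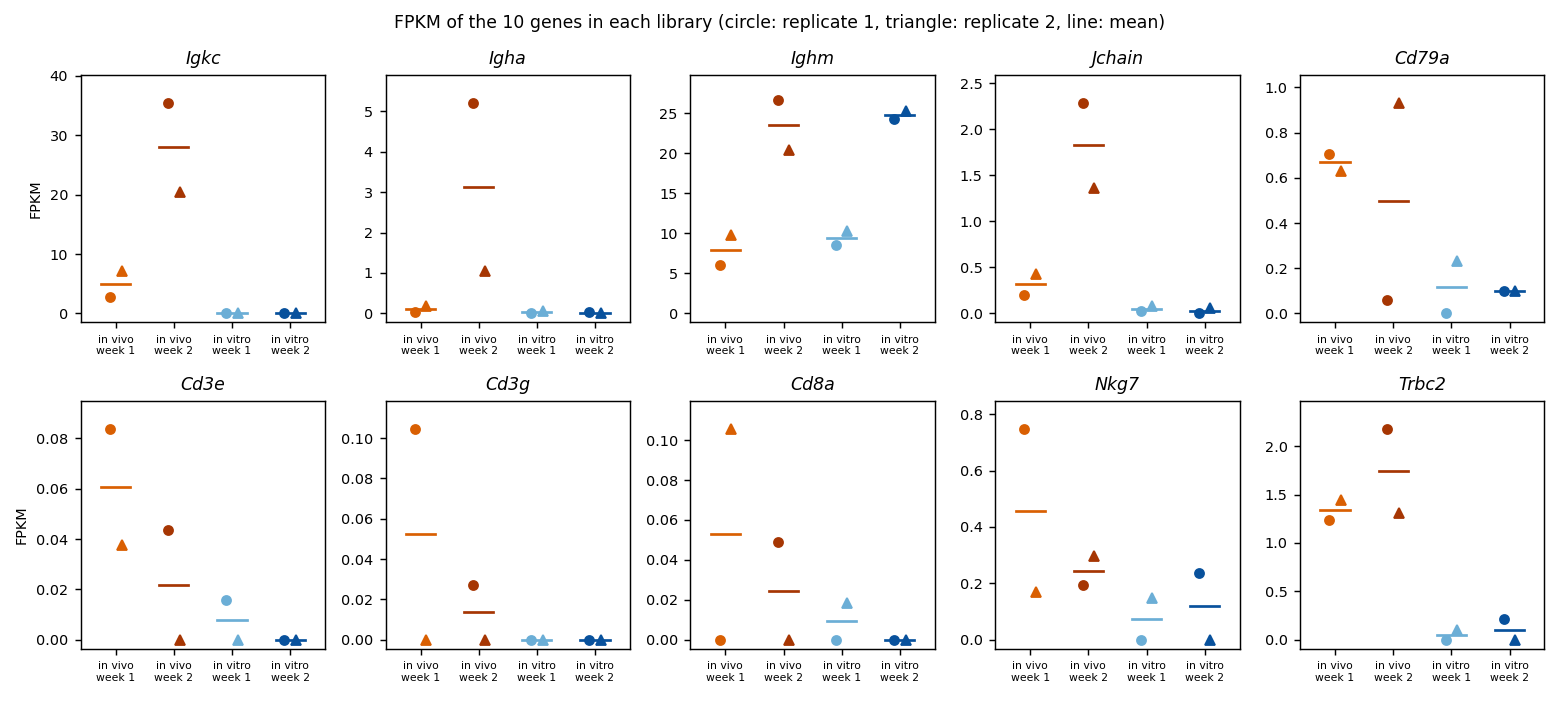
FPKM (vertical axis, a separate linear scale for each gene) of the 10 genes in the 4 groups, with circles for replicate 1, triangles for replicate 2 and a line at the group mean. *Igkc* is at 0 in the 4 *in vitro* libraries and reaches 35.5 FPKM *in vivo*, while *Ighm* is as high *in vitro* as *in vivo*.

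*Jchain* (chr5:88519809-88527891, minus strand), which links IgM and IgA units, followed the same order at lower levels. Its values were 0.204 and 0.427 FPKM at week 1 and 2.29 and 1.37 FPKM at week 2 *in vivo*, from 6, 14, 65 and 38 fragments. *In vitro* it had 1, 3, 0 and 2 fragments, or at most 0.0798 FPKM. The lowest *in vivo* library exceeded the highest *in vitro* library, and summed fragments scaled by library size gave a ratio of 25.2 (95% exact interval 11.2 to 69.9). Within the *in vivo* samples the week 2 mean was 5.80 times the week 1 mean and the weeks did not overlap.

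*Igha*, the heavy chain constant region of IgA, was found mostly at week 2. The gene lies at chr12:113254830-113260236 on the minus strand. It stood at 0.0320 and 0.173 FPKM at week 1 and at 5.21 and 1.05 FPKM at week 2 *in vivo*, from 1, 6, 157 and 31 fragments. *In vitro* it had 0, 2, 1 and 0 fragments. The *in vivo* and *in vitro* samples overlapped, because the lowest *in vivo* library held 1 fragment and the highest *in vitro* library held 2. At week 2 alone the ratio of *in vivo* to *in vitro* was 231 (95% exact interval 40.9 to 9169), and at week 1 it was 4.29 (0.817 to 42.3). The week 2 replicates differed from each other more for *Igha*, with 157 and 31 fragments, than for *Igkc*, with 213 and 120 fragments.

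*Ighm*, the heavy chain constant region of IgM, did not follow the other antibody genes. It lies in the same locus at chr12:113418558-113422730 on the minus strand. *In vivo* it stood at 6.11 and 9.85 FPKM at week 1 and at 26.6 and 20.4 FPKM at week 2. *In vitro* it stood at 8.61 and 10.3 FPKM at week 1 and at 24.3 and 25.3 FPKM at week 2. The *in vivo* and *in vitro* samples overlapped at both weeks, while the weeks were apart within each condition. Summed over both weeks, 1369 fragments *in vivo* and 1824 *in vitro* gave a ratio of 0.921 (95% exact interval 0.858 to 0.988). The difference of log2(FPKM + 0.1) was -0.28 at week 1 and -0.09 at week 2, and its replicate SD was 0.29. Its week 2 to week 1 ratio was 2.95 *in vivo* and 2.62 *in vitro*. Immunoglobulin transcripts as a class were therefore not limited to the *in vivo* libraries.

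V segments, the variable parts of antibody chains, separated the *in vivo* and *in vitro* samples as *Igkc* did. The table holds 218 immunoglobulin V segments, of which 75 had any fragment. Together they had 17 and 51 fragments at week 1 and 237 and 157 fragments at week 2 *in vivo*, and 0, 2, 1 and 0 fragments *in vitro*. The *in vitro* fragments fell on *Ighv1-58* and *Ighv8-6*. Heavy chain V segments, the only ones that can share an mRNA with *Ighm*, had 8, 16, 94 and 52 of these fragments *in vivo*. Beside them were 135, 242, 567 and 425 fragments on *Ighm*. *In vitro* they had 0, 2, 1 and 0, beside 250, 291, 633 and 650 on *Ighm*. V segments of *Igha* and IgG transcripts are counted among them too.

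**Figure D2:**
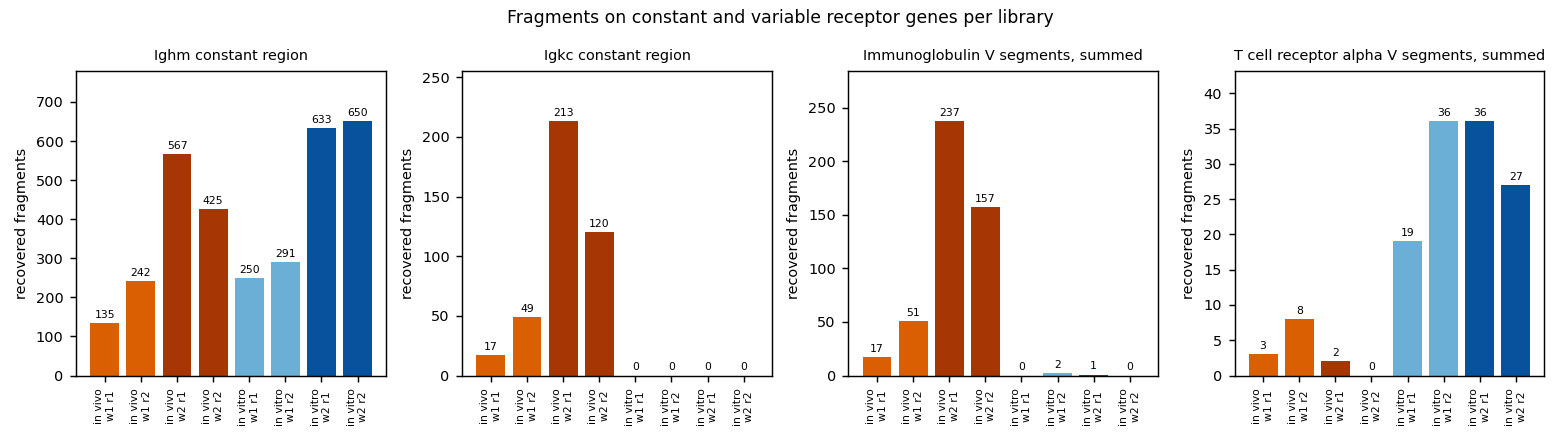
Fragments (vertical axis, starting at 0 with its own scale in each panel) in each of the 8 libraries on *Ighm*, on *Igkc*, on all immunoglobulin V segments and on all T cell receptor alpha V segments, with 1 bar per library and its count above it. *Ighm* bars are as tall *in vitro* as *in vivo*, whereas *Igkc* and immunoglobulin V segments have 0 to 2 fragments *in vitro*.

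The V segments came from all 3 antibody loci. Beside the heavy chain segments, kappa segments had 7, 29, 136 and 79 fragments in the *in vivo* libraries and lambda segments had 2, 6, 5 and 26. Of the 73 segments seen *in vivo*, 52 (71.2%) were seen in 1 library only, 17 in 2, 3 in 3 and 1 in all 4 libraries. The segment present in all 4 was *Iglv1*, with 2, 3, 4 and 14 fragments. The number of segments seen rose with the number of fragments, from 8 and 19 at week 1 to 48 and 24 at week 2.

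No V segment made up most of a library. The leading segment was *Ighv3-6* in *in vivo* week 1 replicate 1, with 4 of 17 fragments (23.5%, 95% exact interval 6.81 to 49.9). In week 1 replicate 2, 3 kappa segments including *Igkv2-109* and *Igkv8-30* tied at 5 of 51 (9.80%, 3.26 to 21.4). In week 2 replicate 1 it was *Igkv1-110* with 17 of 237 (7.17%, 4.23 to 11.2), and in week 2 replicate 2 it was *Igkv8-24* with 28 of 157 (17.8%, 12.2 to 24.7). The library with the most V fragments was thus the one in which the leading segment held the smallest share. V segments of a family are close copies, and reads may be split between them by the counting, so single segment counts are uncertain.

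*Igkv8-24* at chr6:70216858-70217421 on the minus strand and *Igkv1-110* at chr6:68270485-68271267 on the plus strand are shown because they led the week 2 libraries. The first 300 coding bases of each are given from GENCODE vM21 (GRCm38), in germline form and with no part marked:

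Igkv8-24: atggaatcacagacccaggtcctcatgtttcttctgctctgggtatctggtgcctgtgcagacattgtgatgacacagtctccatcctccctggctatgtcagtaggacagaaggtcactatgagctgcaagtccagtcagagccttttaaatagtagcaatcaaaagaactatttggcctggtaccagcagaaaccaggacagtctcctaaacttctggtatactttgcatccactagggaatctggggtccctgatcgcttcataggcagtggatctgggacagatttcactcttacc
Igkv1-110: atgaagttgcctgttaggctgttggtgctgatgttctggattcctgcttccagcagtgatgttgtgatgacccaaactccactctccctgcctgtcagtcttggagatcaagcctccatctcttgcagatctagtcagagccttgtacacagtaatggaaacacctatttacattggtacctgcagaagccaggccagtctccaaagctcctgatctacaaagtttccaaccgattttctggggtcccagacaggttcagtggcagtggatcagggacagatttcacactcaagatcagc

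*Igkv8-24* had 0 fragments in both week 1 libraries and 14 and 28 at week 2. *Igkv1-110* had 0 and 1 fragments at week 1 and 17 and 7 at week 2. Neither had a fragment *in vitro*.

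**Figure D3:**
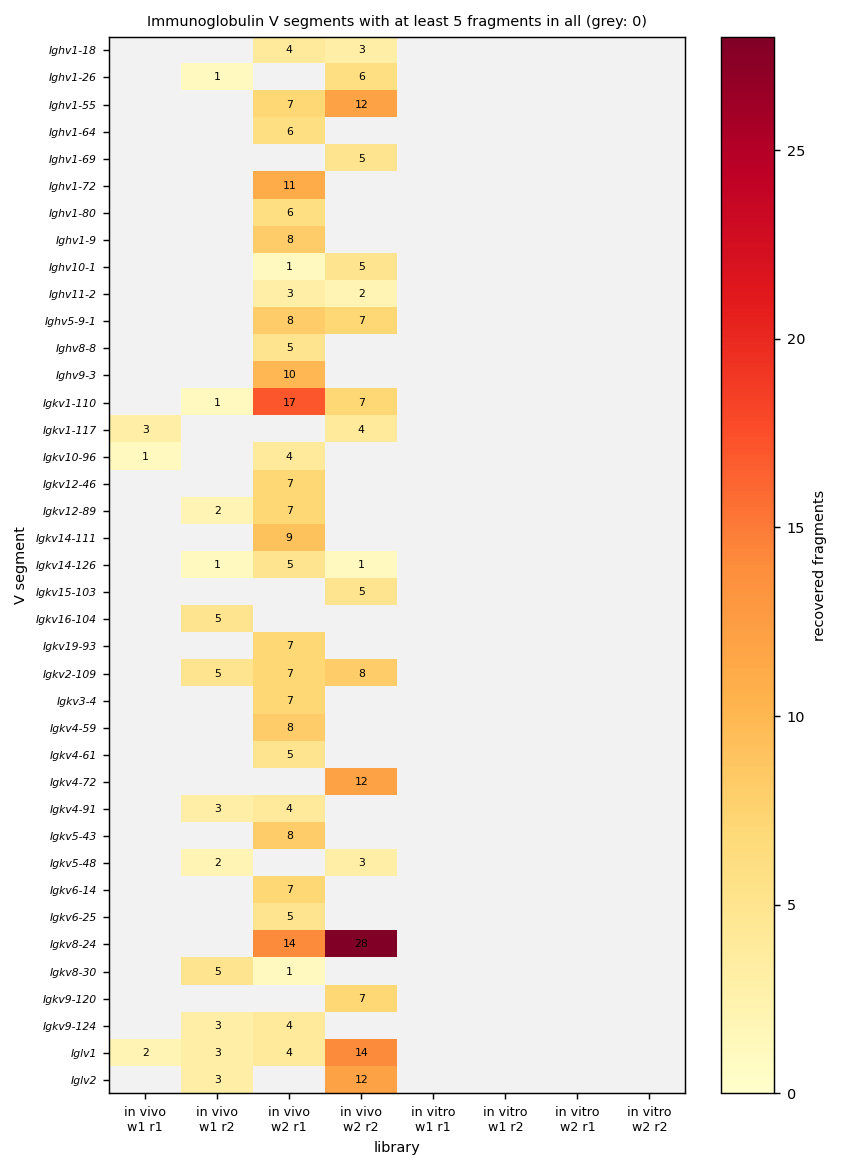
Fragments (colour scale and printed numbers, with grey for 0) on each immunoglobulin V segment with at least 5 fragments in all, by library. All filled cells lie in the 4 *in vivo* columns, and most segments are filled in 1 or 2 of them.

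The light and heavy chain classes differed between *in vivo* libraries. Lambda constant genes (*Iglc1*, *Iglc2* and *Iglc3*) had 0 and 10 fragments at week 1 and 0 and 20 at week 2 *in vivo*, and 0 in all *in vitro* libraries. As a share of lambda and *Igkc* fragments together this was 16.9% (95% exact interval 8.44 to 29.0) and 14.3% (8.95 to 21.2) in the replicate 2 libraries. In the replicate 1 libraries it was 0 of 17 fragments, with an upper limit of 19.5%, and 0 of 213, with an upper limit of 1.72%. The week 2 replicates therefore differed in the share of lambda constant fragments by more than counting error. Lambda V segments were still counted in the replicate 1 libraries, with 2 fragments at week 1 and 5 at week 2.

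IgG constant genes showed another split. *In vivo* week 2 replicate 1 had 61 *Ighg2c* and 24 *Ighg1* fragments, whereas the other 3 *in vivo* libraries had 0 to 2 fragments of *Ighg2c* and 0 of *Ighg1*. *In vitro*, *Ighg2c* had 12, 10, 2 and 3 fragments and *Ighg1* had 10, 7, 17 and 11. These genes are close copies, so reads may be split between them. *Ighg1* and *Ighg2c* fragments were thus counted in all 4 *in vitro* libraries, again beside almost no V segment reads. *Ighg2c*, at 0.109 to 0.588 FPKM *in vitro* and 0 to 4.08 FPKM *in vivo*, passed no test in limma at either week (adjusted p = 0.16 at week 1 and 0.19 at week 2, Benjamini-Hochberg).

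*Cd79a* (chr7:24897381-24902197, plus strand), which carries the signal of the B cell receptor, varied on its own. It stood at 0.703 and 0.632 FPKM at week 1 and 0.0608 and 0.932 FPKM at week 2 *in vivo*, from 12, 12, 1 and 15 fragments. *In vitro* it had 0, 5, 2 and 2 fragments, so 1 *in vivo* library fell within the *in vitro* range. That library was week 2 replicate 1, the one with the highest *Igkc*, *Igha*, *Jchain* and V segment counts. Over both weeks the ratio was 5.45 (95% exact interval 2.61 to 12.8). Its partner *Cd79b*, which was not one of the 10 genes, had 20, 16, 12 and 3 fragments *in vivo* and 0, 3, 2 and 1 *in vitro*.

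*Trbc2*, a constant region of the T cell receptor beta chain, was the clearest of the T cell genes. It stood at 1.23 and 1.44 FPKM at week 1 and 2.18 and 1.31 FPKM at week 2 *in vivo*, from 10, 13, 17 and 10 fragments. *In vitro* it had 0, 1, 2 and 0 fragments, or at most 0.209 FPKM. The conditions did not overlap and the *in vivo* weeks did, and the ratio over both weeks was 20.5 (95% exact interval 6.61 to 103). *Trbc1*, its neighbour, had 2, 5, 2 and 1 fragments *in vivo* and 0 in all *in vitro* libraries.

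*Trbc1* and *Trbc2* are near copies, at 95.5% identity over 512 aligned coding bases, with the first 259 bases identical. Reads from that shared start cannot be told apart, so the split between both genes is uncertain. Coding bases 383 to 502, the last 120 before the first gap between the aligned sequences, hold 18 of the 23 mismatches. They are shown with the differing bases in capitals, from GENCODE vM21 (*Trbc1* at chr6:41538218-41539881 and *Trbc2* at chr6:41546730-41548352, both on the plus strand):

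Trbc1: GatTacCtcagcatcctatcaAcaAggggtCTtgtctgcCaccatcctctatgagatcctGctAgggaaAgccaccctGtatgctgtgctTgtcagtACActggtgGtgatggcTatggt
Trbc2: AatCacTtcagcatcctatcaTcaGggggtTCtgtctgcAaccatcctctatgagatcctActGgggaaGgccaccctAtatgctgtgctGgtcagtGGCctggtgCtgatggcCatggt

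The other T cell and NK genes were close to the detection limit. *Cd3e* and *Cd3g*, which encode CD3 chains, had 4, 2, 2, 0 and 4, 0, 1, 0 fragments in the *in vivo* libraries, against 1, 0, 0, 0 and 0 throughout *in vitro*. *Cd8a*, the coreceptor of cytotoxic T cells, had 0, 5, 2 and 0 fragments *in vivo* and 0, 1, 0 and 0 *in vitro*. *Nkg7* had 8, 2, 2 and 3 fragments *in vivo* and 0, 2, 3 and 0 *in vitro*, a ratio of 3.68 (95% exact interval 1.27 to 12.9). All 4 genes overlapped between the *in vivo* and *in vitro* samples. Their *in vivo* week 2 means were 0.259 to 0.536 times their week 1 means, with overlapping weeks, and at this depth no difference between weeks was detectable. *Cd3e* overlaps the antisense gene *Gm48719* and the transcript *Gm48720*, and whether the counting used strand is not given in the sources used here.

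T cell receptor alpha V segments ran against the beta genes. The alpha V segments (Trav) had 3, 8, 2 and 0 fragments *in vivo* and 19, 36, 36 and 27 *in vitro*, so they did not overlap and were higher in culture. *Trav13-4-dv7*, the most abundant of them, had 1, 4, 0 and 0 fragments *in vivo* and 4, 18, 12 and 9 *in vitro*. The other leading segments were *Trav14n-3*, with 1 fragment *in vivo* and 21 *in vitro*, and the delta segment *Trdv4*, with 6 and 15. The alpha constant region *Trac* had 20, 26, 14 and 15 fragments *in vivo* and 28, 26, 25 and 8 *in vitro*, and overlapped. Beta V segments (Trbv) had 0, 5, 4 and 2 fragments *in vivo* and 0, 1, 0 and 1 *in vitro*. The mouse alpha locus holds duplicated segments, so the counts of its single segments are uncertain.

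*Igkc*, *Jchain* and *Trbc2* were higher in all 4 *in vivo* than in all 4 *in vitro* libraries, a state found in 13.4% of the 28005 genes with any fragment. *Ighm* was at like levels in both conditions, and the other 6 genes overlapped with more fragments *in vivo*. Fragments on the 9 genes other than *Ighm* came to 62, 103, 460 and 217 in the *in vivo* libraries and to 2, 14, 8 and 4 *in vitro*. Between the weeks *in vivo*, *Igkc*, *Igha*, *Jchain* and *Ighm* were higher at week 2 without overlap, and the remaining 6 genes overlapped. Of the 10 genes, 6 reached 0.5 FPKM in at least 2 libraries and so entered the fit across all genes, 5 of them only through *in vivo* libraries. No count of calls is given for them.

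The genes whose levels ran most alike over the 8 libraries were not lymphocyte genes. For the summed FPKM of *Igkc*, *Igha*, *Ighm* and *Jchain*, the highest Pearson correlations of log2(FPKM + 0.1) among 15702 genes were those of *C1qtnf4* (r = 0.982), *Fgf1* (0.979), *Rfk* (0.974), *Galnt11* (0.971) and *Tceal1* (0.969). For the summed T cell and NK genes they were *Dennd4b* (0.987), *Gm36172* (0.987), *Gm18787* (0.981), *Prdm16* (0.980) and *Armc7* (0.978). Without *Ighm* in the antibody sum, an alternative added after the data were seen, *Pkd1* (0.996), *Gm45397* and *Hmcn2* led instead. All of these points share their libraries and fall into 4 groups.

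A wider set of 87 lymphocyte genes outside the 10 was then compared in limma, on log2(FPKM + 0.1) of the 15708 genes that reached 0.5 FPKM in at least 2 libraries. A gene was called where its log2 fold change exceeded 1 in size and its p, adjusted by Benjamini-Hochberg, was under 0.01. Of the 87 genes, 28 were tested. At week 1, 0 were higher and 3 (*Bank1*, *Cd28* and *Prdm1*) lower *in vivo*, where 7.79% and 5.07% of all tested genes were called higher and lower. At an unadjusted p under 0.05 there were 14 of the 28 in either direction, beside 7942 of all 15708 tested genes, and limma voom on the fragments called 4 higher, beside 1337 of all genes. At week 2, 1 (*Fkbp11*) was higher and 7 lower, against 9.02% and 8.05% of all tested genes. Over both weeks, 4 were higher and 5 lower, against 9.56% and 7.3%, and the median log2 fold change was 0.16 for the 28 genes and -0.00 for all tested genes. The difference between the weekly changes was called for 0 of the 28 genes, against 0.573% of all tested genes in one direction and 1.15% in the other. The wider set thus showed calls both up and down.

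The 4 genes called higher over the mean of both weeks came from 3 cell classes. *Cd79b*, the partner of *Cd79a* in the B cell receptor, rose by 2.17 ± 0.48 (log2, SE; limma adjusted p = 0.0069, Benjamini-Hochberg). *Ccl5*, a chemokine of T and NK cells, rose by 2.09 ± 0.43 (limma adjusted p = 0.0049, Benjamini-Hochberg), and *Il2rb*, a chain of the interleukin receptors of these cells, by 1.54 ± 0.35 (0.0079). *Fkbp11*, a folding enzyme of secretory cells, rose by 1.02 ± 0.07 (2.3e-05). All 4 were higher in 4 of 4 *in vivo* libraries than in any *in vitro* library. *Cd79b* and *Il2rb* reached 0.5 FPKM only in *in vivo* libraries, so they entered the fit through the samples where they were high. Without the FPKM filter, the 4 genes called higher were *Fkbp11*, *Gzmb*, *Il2rb* and *Trbc1*. With the filter, the calls of *Cd79b*, *Ccl5*, *Il2rb* and *Fkbp11* depended on which libraries entered the fit. Without *in vivo* week 2 replicate 1 the count fell to 0, it was 4 without *in vivo* week 2 replicate 2, and it was 1 without any of the other 6 libraries in turn, namely *Fkbp11*, *Ccl5* or *Cd79b*, while the fold changes of all 4 stayed above 0 without any single library.

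The 5 genes called lower over the mean of both weeks included B cell and T cell signalling genes. *Cd28*, the costimulatory receptor of T cells, fell by 3.25 on the log2 scale (SE 0.16; limma adjusted p = 5.4e-06, Benjamini-Hochberg), from 1.68 to 5.55 FPKM *in vitro* to 0.188 to 0.364 FPKM *in vivo*. *Bank1*, a B cell scaffold protein, fell by 2.62 (SE 0.24), and *Prdm1*, a transcription factor of plasma cells, by 1.83 (SE 0.14). *Cd28* and *Bank1* reached 0.5 FPKM only in *in vitro* libraries, so they entered the fit through the samples where they were high. *Blnk*, an adaptor below the B cell receptor, fell by 1.26 (SE 0.09), and *Cd22*, an inhibitory B cell receptor, by 1.07 (SE 0.20). The call of *Cd22* was lost when *in vitro* week 1 replicate 2, *in vitro* week 2 replicate 2, *in vivo* week 2 replicate 2 or either *in vivo* week 1 library was left out, and the other 4 calls held without any single library. *Cd22* differed by -0.01 on the log2 scale at week 1, where it was not called, and by -2.14 at week 2, where it was, and the test of the difference between weeks missed the threshold (limma, Benjamini-Hochberg adjusted p = 0.0236). At week 2 alone, *Il7r* and *Cd4* fell by 1.54 and 2.04. Macrophages also use *Blnk*, and of the 14 macrophage markers 5 were called lower and 1 higher *in vivo* over both weeks. Their part in these results was not tested. *In vitro*, *Cd28* had 158, 214, 427 and 462 fragments, where *Cd3e* had 1, 0, 0 and 0 and *Trac* had 28, 26, 25 and 8. *Bank1* had 116, 170, 184 and 184 fragments there, where *Igkc* had 0 and *Ighm* had 250, 291, 633 and 650. Which cells held the *Cd28* and *Bank1* transcripts was not tested.

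**Figure D4:**
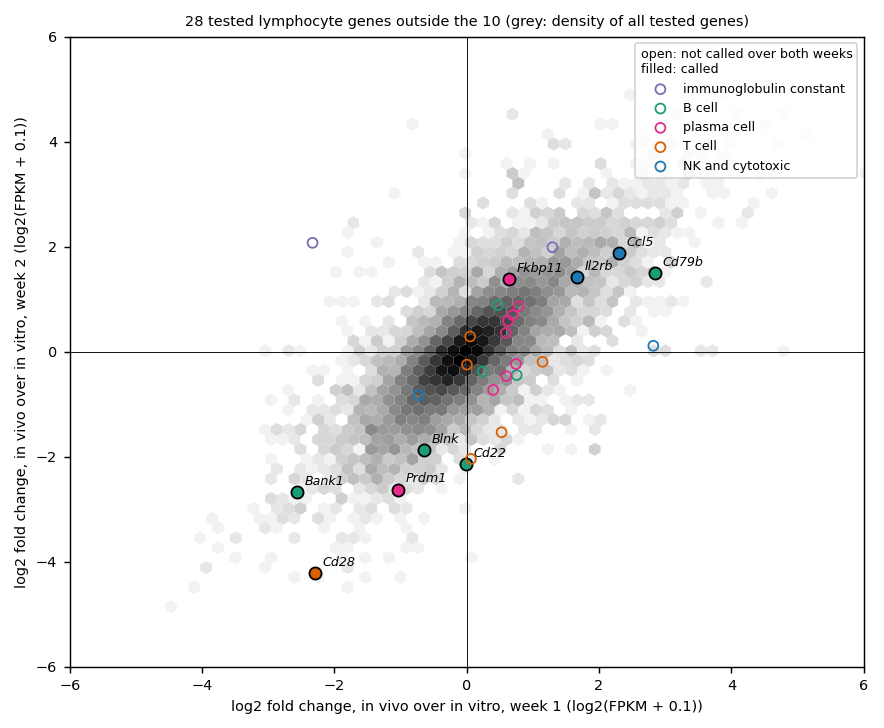
Log2 fold change, *in vivo* over *in vitro*, at week 1 (horizontal axis) and week 2 (vertical axis) for the 28 tested lymphocyte genes outside the 10, coloured by list and filled where called over both weeks, on a grey density of all tested genes. *Cd79b*, *Ccl5*, *Il2rb* and *Fkbp11* lie at the upper right and *Cd28*, *Bank1*, *Prdm1*, *Blnk* and *Cd22* at the lower left or below 0.

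By class, the other immunoglobulin constant genes had 0 of 2 tested genes called over both weeks, and the B cell list had 1 higher and 3 lower of 7. The plasma cell list had 1 higher and 1 lower of 9, the T cell list 0 higher and 1 lower of 6, and the NK and cytotoxic list 2 higher and 0 lower of 4. Among all tested genes, 9.56% were called higher and 7.3% lower over both weeks, and each class held few tested genes. Most defining markers were too low to be tested. *Gzma* and *Gzmb*, the granzymes of killer cells, had 8, 5, 3, 0 and 8, 13, 2, 0 fragments in the *in vivo* libraries and 0 *in vitro*, and the pore protein *Prf1* had 3, 4, 0 and 0 and none *in vitro*. *Klrb1c*, an NK cell receptor, had 3, 7, 0 and 0 fragments *in vivo* and 9, 9, 2 and 8 *in vitro*. *Cd247*, the zeta chain of the T cell receptor complex, had 0, 4, 4 and 9 fragments *in vivo* and 0, 0, 3 and 1 *in vitro*, and *Cd8b1*, the partner of *Cd8a*, had 0, 1, 0 and 2 *in vivo* and none *in vitro*. *Gzma*, *Gzmb* and *Prf1* thus had more fragments at week 1 than at week 2, whereas *Gzmk*, with 0, 2, 3 and 0 fragments *in vivo* and none *in vitro*, did not.

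Plasma cell genes outside the 10 differed among themselves. *Mzb1*, a chaperone of antibody-secreting cells, had 1, 1, 10 and 0 fragments *in vivo* and 0, 0, 1 and 2 *in vitro*. *Tnfrsf17*, the survival receptor of plasma cells, had 0 fragments in all *in vivo* libraries and 2, 0, 11 and 4 *in vitro*. *Sdc1* (CD138) marks plasma cells but was abundant in every library, at 80.6 to 88.2 FPKM *in vivo* and 47.7 to 54.0 FPKM *in vitro*. *Sdc1*, *Xbp1* and *Txndc5* were higher in all 4 *in vivo* libraries with log2 fold changes of 0.70, 0.60 and 0.82 over both weeks, which are under the fold threshold. *Sdc1* and *Xbp1* were also higher at week 2 than at week 1 *in vivo* without overlap, *Xbp1* at 56.9 and 62.2 and then at 63.2 and 68.0 FPKM. *In vitro*, *Xbp1* rose without overlap too, from 39.0 and 38.2 to 43.0 and 44.2 FPKM, whereas the weeks of *Sdc1* overlapped.

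Markers of other blood and vessel cells also differed between the conditions. Of 7 red cell genes, 4 were tested, and *Hbb-bs* and *Hba-a1* rose *in vivo* by 4.31 and 3.76 (log2). The list summed to 4.02 to 6.57 FPKM *in vivo* and 0.331 to 0.648 FPKM *in vitro*, with *Slc4a1* at 0 in all 8 libraries. Of 10 neutrophil genes, 3 were tested and 1 (*S100a9*) was called higher over both weeks. That list summed to 3.53 to 10.3 FPKM *in vivo* and 2.92 to 4.16 FPKM *in vitro*, and *Ly6g* was at 0 throughout. Endothelial genes, 6 of 8 of which were called higher, summed to 75.1 to 95.03 FPKM *in vivo* and 23.5 to 58.8 FPKM *in vitro*. Of 12 leukocyte genes, 2 were called higher and 1 lower, and they summed to 194 to 348 FPKM *in vivo* and 268 to 342 FPKM *in vitro*. Among all tested genes, 9.56% were called higher and 7.3% lower over both weeks. *Hbb-bs*, *Hba-a1*, *S100a9*, the endothelial gene *Vwf* and the leukocyte gene *Cytip*, all called higher, reached 0.5 FPKM only in *in vivo* libraries. The called red cell genes differed in the same direction as *Igkc*, *Jchain* and *Trbc2*. The sum of the red cell list was lower at week 2 than at week 1 *in vivo*. Its gene *Hbb-bs* overlapped between these weeks, at 2.67 and 2.80 and then at 1.73 and 2.83 FPKM. The part of these other cells in the levels of the 10 genes was not tested.

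**Figure D5:**
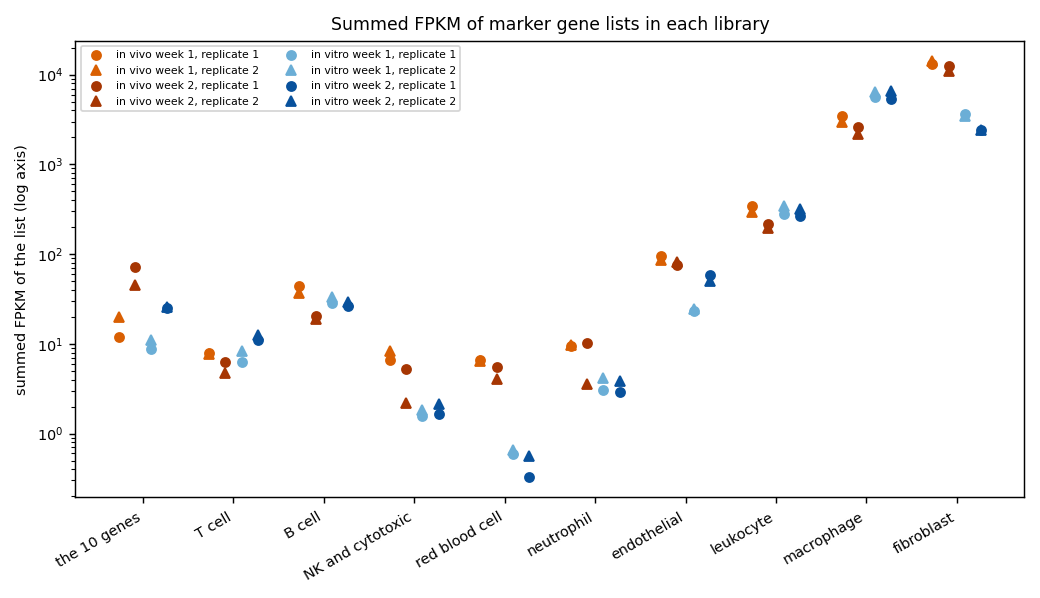
Summed FPKM (vertical axis, log scale) of the 10 genes and of 9 marker lists in each library, with circles for replicate 1 and triangles for replicate 2. The 10 genes sum to 11.95 to 72.2 FPKM *in vivo* and 8.65 to 25.5 FPKM *in vitro*, far under the macrophage and fibroblast lists.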

How the data were processed

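RNA was sequenced in 8 libraries, 2 for each of *in vivo* and *in vitro* at 1 and 2 weeks, from sorted eGFP+ cells *in vivo*, while the sources differ on whether the cultured cells were sorted. The authors deposited 1 table of FPKM per gene. The submitters' processing notes name CASAVA, HISAT2 2.0.5 and mm10, and the counting tool, its strand setting and the method behind the FPKM library size are not given in the sources used here. FPKM times gene length was divided by the smallest step per library to recover whole fragments. The 10 genes and all lists were chosen with earlier results of these data known, and the 10 genes received no test. Fragments are not independent molecules. The other genes were tested in limma 3.58.1 (R 4.3.3) on log2(FPKM + 0.1) with a 4-group means model and a variance trend, over genes with at least 0.5 FPKM in at least 2 libraries, and p-values were adjusted by Benjamini-Hochberg over all of them. FPKM are not counts, so limma voom on recovered fragments was an alternative only. A fold change on the log2(FPKM + 0.1) scale understates the change of low genes.

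Shares and ratios of fragments have 95% exact binomial intervals, with ratios scaled by the library size behind the FPKM (scipy 1.17.1). Replicates differed by more than sampling noise in every group, where chi-square divided by the number of genes was 4.25 to 9.22. Of each list, up to 4 called genes were named by mean FPKM, together with set defining markers. Named genes outside these rules, among them the lambda and IgG constant genes, *Xbp1*, *Txndc5* and overlapping genes, were picked after their values were seen. V segments were taken by the biotype column of the table, and sequences from GENCODE vM21 transcripts of GRCm38, in which all 10 genes have the same ends as in the table. Alternatives were other pseudocounts, filters and scalings, voom, no variance trend, single weeks, a replicate block and leaving out each library. The script was tested on simulated data. The table held 0 columns of no sample.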

Additional observations from a re-analysis of the deposited data

How the results depend on the processing

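The 10 genes kept the sign of their *in vivo* minus *in vitro* difference under other pseudocounts, rescaling and leaving out each *in vivo* library, though 14 of 70 alternative values moved by more than the replicate SD. Rescaling the FPKM to fragments on genes shifted the median of all genes by -0.33 (log2), lowered the *Ighm* difference over both weeks from -0.18 to -0.52, and moved the share of higher among called genes from 56.7% to 35.3%. A replicate block left 2 of the 4 other lymphocyte genes that rose over both weeks. Replicate numbers correlated at -0.02 between the conditions in both weeks, so they were not treated as pairs.

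Among all genes, the number higher *in vivo* than *in vitro* at week 1, week 2 and both weeks went from 1224, 1417 and 1501 to 3365, 3862 and 4481 at an adjusted p under 0.05 with no fold threshold, and to 954 over both weeks with a pseudocount of 1. Leaving out 1 library gave 912 to 1213, 1127 to 1343 and 1326 to 1453.

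For other lymphocyte genes higher *in vivo* than *in vitro*, week 1 went from 0 to 4 with voom, 2 without a filter and 10 at an adjusted p under 0.05 with no fold threshold. Week 2 went from 1 to 2 and 7 with the first and last of these. Both weeks went from 4 to 2 after rescaling, 2 with a filter of 1 FPKM, 1 with a pseudocount of 1 and 9 at an adjusted p under 0.05 with no fold threshold. Leaving out 1 library gave 0 to 2 at week 1, 1 to 2 at week 2 and 0 to 4 over both weeks, where a group left with 1 library is assumed to vary like the others. The cause was not tested, beyond the settings' own construction. Depth limits *Cd3e*, *Cd3g*, *Cd8a* and *Nkg7*, which had at most 8 fragments in any library.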

Other observations

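Genes whose products draw or sustain lymphocytes were also measured. Of 12 tested homing and survival factors, 5 were called higher and 1 lower *in vivo* over both weeks, in limma on log2(FPKM + 0.1), beside 9.56% and 7.3% of all tested genes, and their median log2 fold change was 0.65, beside -0.00 for all tested genes. Among these 5, *Ccl21a*, *Cxcl9* and *Tnfsf13b* reached 0.5 FPKM only in *in vivo* libraries. They entered the fit through the samples where they were high, so the count and the median are a description only. *Cxcl12*, a chemokine that retains plasma cells and B cells, stood at 52.5, 51.4, 34.9 and 30.3 FPKM *in vivo* and at 6.51 to 9.26 FPKM *in vitro*, and rose by 2.41 (log2, SE 0.06). *Cxcl10*, which attracts activated T cells and NK cells, stood at 46.5, 73.6, 32.8 and 19.1 FPKM *in vivo* and at 5.32 to 14.9 FPKM *in vitro*, and rose by 2.10 (SE 0.21) over both weeks, by 3.31 at week 1, where it was called, and by 0.89 at week 2, where it was not. *Vcam1* and *Cxcl16* were called higher at week 1, by 1.00 and 1.17, and not at week 2, and the test of the difference between weeks missed the threshold (limma, Benjamini-Hochberg adjusted p = 0.0119 for both). It also missed it for *Cxcl10* (limma, Benjamini-Hochberg adjusted p = 0.0181).

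Of the others, named after their values were seen, *Cxcl9* rose by 4.35 and *Tnfsf13b* (BAFF), a survival factor of B cells, by 1.18 over both weeks, while *Cxcl13* fell by 1.41. *Tnfsf13* and *Il6* differed by -0.76 and -0.42 over both weeks, and *Il15* and *Icam1* by 0.26 and 0.41, none of them called. For *Tnfsf13*, every *in vivo* library lay below every *in vitro* library. *Ccl21a*, a chemokine of lymphatic vessels, had 5, 15, 36 and 64 fragments *in vivo* and 0 in all *in vitro* libraries, so it was higher at week 2 than at week 1 *in vivo*, as *Igkc* was. A further row of the table is also named *Ccl21a* and this gene has near-identical copies, so its count is uncertain.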
